A study of Mus musculus with 4 samples.

Results

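The D cyclins Ccnd1, Ccnd2 and Ccnd3, the kinases Cdk4 and Cdk6 and the kinase inhibitors Cdkn1b (p27) and Cdkn1c (p57) were followed across the cell types of the embryonic mouse heart. These 7 genes were taken by name from the 30268 genes of a merged single-cell table, and all 7 were found in it. D cyclins bind Cdk4 and Cdk6, and the active pairs phosphorylate the retinoblastoma proteins, which releases E2F factors and lets a cell leave G1 for S phase. Cdkn1b and Cdkn1c belong to the Cip/Kip family and bind cyclin and kinase pairs. p27 is set largely by translation and protein breakdown, so that its mRNA is only part of its control. Cdkn1c is imprinted and expressed mainly from the maternal copy, and it is known for holding back growth and division in embryonic tissues.

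The hearts were dissociated and profiled by Drop-seq, in which single cells are lysed in droplets and each captured mRNA is tagged with a unique molecular identifier (UMI). Lats1/2 CKO hearts (Wt1 CreERT2/+; Lats1/2 F/F; Rosa26mTmG/+) and control hearts (Wt1 CreERT2/+; Rosa26mTmG/+) were each collected at 2 embryonic stages, E14.5 and E13.5, with 1 library per genotype and stage. Lats1 and Lats2 are the kinases of the Hippo pathway that hold back YAP and TAZ. The Cre in both genotypes is driven by Wt1, active in the epicardium, and is induced by tamoxifen, and both carry the membrane reporter, so the controls share every allele except the floxed Lats1 and Lats2. Whether a given cell lost Lats1 and Lats2 is not known from its class. The number of embryos behind a library, the tamoxifen schedule and the sex of the embryos are not given in the sources used here.

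After a minimum of 500 UMIs and 300 genes per cell, the Lats1/2 CKO libraries held 5597 cells at E14.5 and 5915 at E13.5, and the control libraries 5505 and 4478. The median depth was 1035 UMIs per cell in Lats1/2 CKO and 955 in control at E14.5, against 2015 in Lats1/2 CKO and 1588.5 in control at E13.5, so the E14.5 libraries were shallower in both genotypes. Only 4 or 5 cell barcodes of each library occurred in another library. In epicardial-like and fibroblast-like cells pooled, Lats1 stood at 21.0 and 22.5 CPM (UMI counts-per-million) in Lats1/2 CKO and 27.3 and 32.1 CPM in control (E14.5 and E13.5). Lats2 stood at 35.9 and 26.9 CPM in Lats1/2 CKO and 47.7 and 44.5 CPM in control. Neither difference passed edgeR's quasi-likelihood test (log2 ratio −0.42, adjusted p = 0.94 for Lats1, and −0.55, adjusted p = 0.85 for Lats2). The reads mark 3′ ends and no source used here gives the deleted part of either gene, so these levels do not check the genotype labels.

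Marker genes placed 15344 cells in 8 classes, none of which used a member gene. There were 7831 cardiomyocyte-like, 2158 endocardial-like, 1723 valve mesenchyme-like, 1157 fibroblast-like, 841 coronary endothelial-like, 648 epicardial-like, 540 macrophage-like and 446 mural-like cells. Every class had more of its own markers than of any other class's among its 10 leading genes. The cells were gated by these same lists, so this and the marker sums below are no separate check of the classes. An unsupervised Leiden clustering put 97.8% of the endocardial-like, 93.3% of the cardiomyocyte-like and 88.0% of the epicardial-like cells in the class of the same name, but 65.7% of the fibroblast-like and 47.1% of the mural-like cells. The Leiden clusters were named by the same marker lists. The 11 cardiomyocyte markers summed to 48780 to 54790 CPM in cardiomyocyte-like cells and to between 381.7 and 17890 CPM in the other classes. The highest of these sums outside the class were 17890 CPM in mural-like and 11600 CPM in macrophage-like cells, both at E14.5. The 11 epicardial markers summed to 4843 to 5709 CPM in epicardial-like cells and to 138.3 to 312.4 CPM in fibroblast-like cells. A level below is the CPM of a gene over the summed cells of a class in 1 library, and it cannot tell fewer cells with the RNA from less RNA per cell.

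Ccnd1 (chr7:144929931-144939925, minus strand) and Cdkn1c (chr7:143458339-143461050, minus strand) both lie on chromosome 7 of mm10, and Ccnd2 (chr6:127125162-127152193, minus strand) and Cdkn1b (chr6:134920401-134925513, plus strand) share chromosome 6. Ccnd3 is at chr17:47505051-47599691, Cdk4 at chr10:127063534-127067920 and Cdk6 at chr5:3341485-3531008, all on the plus strand. All are protein-coding genes of the GENCODE annotation. In the gated cells the table held 41331 UMIs of Cdkn1c, 19404 of Ccnd2, 17304 of Cdk4, 10049 of Ccnd3, 7553 of Ccnd1, 4101 of Cdkn1b and 1593 of Cdk6. Cdk4 overlaps the opposite-strand gene Tspan31, with 4065 UMIs, and Ccnd3 overlaps Bysl, with 929. No source used here says whether the counting used the strand, and reads of these pairs may be shared. The table also lists Ccnd3-ps, with 42 UMIs.

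RefSeq promoter windows of the GRCm38.p6 build, from 250 bases before to 50 bases after a start site, were matched for Cdkn1b, Cdk4, Cdk6 and Ccnd3, the last with 2 windows. The windows of Cdkn1b (chr6:134920151-134920450, plus strand), the inhibitor that was higher in cells with division transcripts, and of Cdk4 (chr10:127063285-127063584, plus strand) are printed because each held a short motif more than once. Capitals mark CCAAT, the motif of the NF-Y factor, on either strand in Cdkn1b, and CACGTG, the E-box bound by Myc family factors, in Cdk4.
Cdkn1b: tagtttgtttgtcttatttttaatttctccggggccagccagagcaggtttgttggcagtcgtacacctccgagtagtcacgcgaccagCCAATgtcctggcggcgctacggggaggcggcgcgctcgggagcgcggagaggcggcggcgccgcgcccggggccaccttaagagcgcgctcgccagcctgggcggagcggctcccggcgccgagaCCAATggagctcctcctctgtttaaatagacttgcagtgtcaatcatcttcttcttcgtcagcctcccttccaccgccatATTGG
Cdk4: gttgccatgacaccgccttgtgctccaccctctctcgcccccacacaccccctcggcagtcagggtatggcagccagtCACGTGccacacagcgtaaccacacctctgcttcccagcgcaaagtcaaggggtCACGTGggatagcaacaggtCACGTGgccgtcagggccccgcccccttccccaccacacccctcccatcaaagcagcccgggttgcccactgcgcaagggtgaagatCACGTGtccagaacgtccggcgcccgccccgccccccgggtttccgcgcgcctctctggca
At least 1 CCAAT was held by 37.4% of the 32851 promoter windows of the table, and at least 1 CACGTG by 7.15%. The E2F letters TTTCCCGC or TTTGGCGC (1.57% of windows, either strand) and the cell-cycle homology letters TTTGAA or TTCGAA (19.2%) were in none of the 5 windows of these genes, which says only that these letters are not in those windows. GGAATG, the letters bound by the TEAD partners of YAP, was in 1 Ccnd3 window and in 14.7% of all windows, and GGGCGG, the GC box, was in 4 of the 5 and in 35.7% of all.

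The classes differed in which D cyclin they carried. Each class was set against the mean of the other classes in one edgeR fit over all genes, with the library as a block, and a gene is said to be called where its Benjamini-Hochberg adjusted p was under 0.05. Of the 56 pairs of a member and a class, 36 were called, 21 higher and 15 lower, against a background of 34.9% of all gene and class pairs. The members' share was 64.3%. The median log2 difference of the 56 was 0.04. DESeq2 called 38 pairs.

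**Figure D1:**
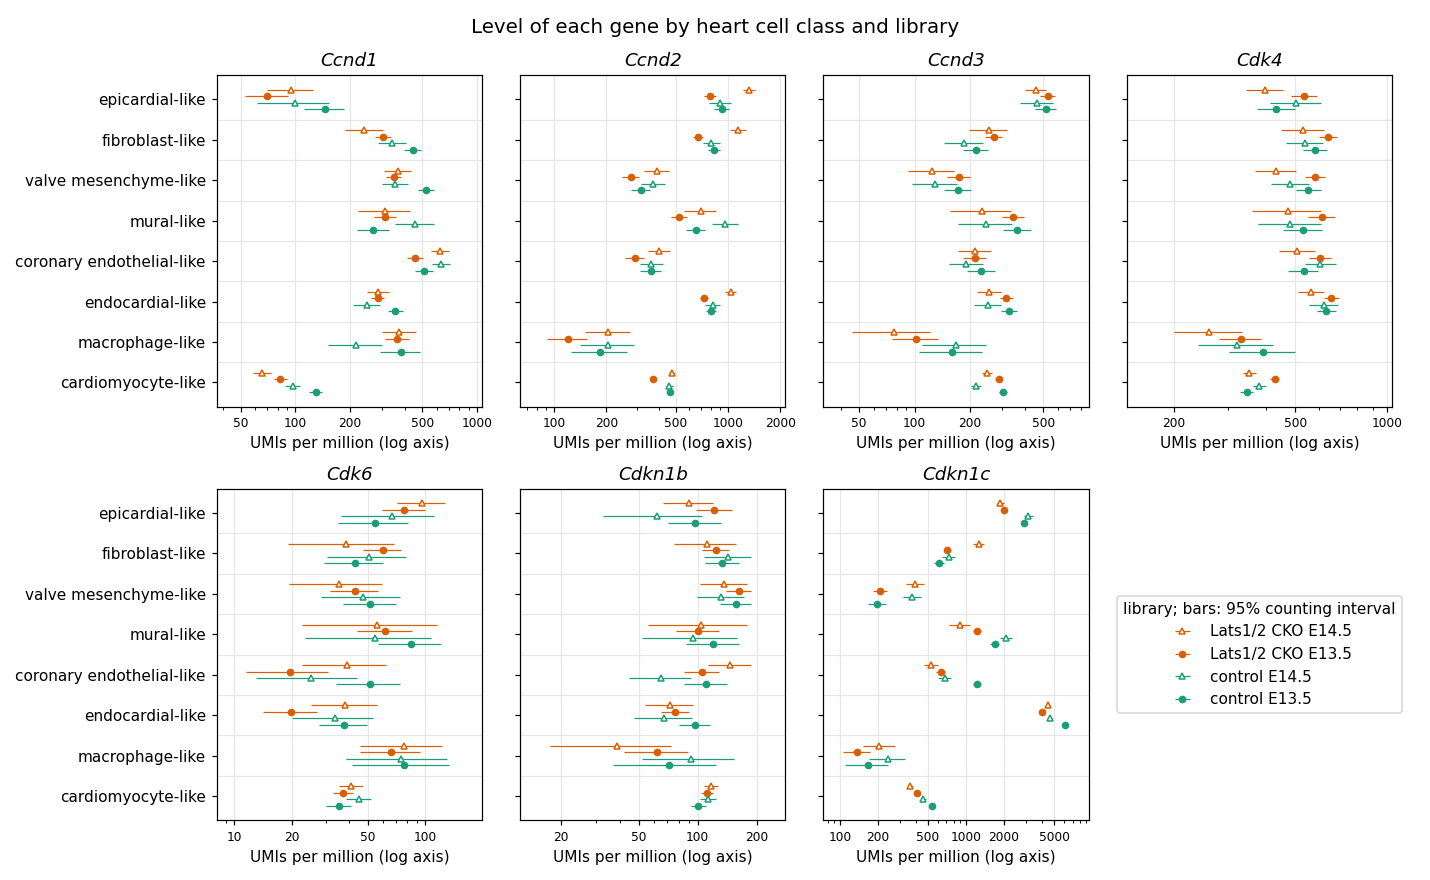
Level of each of the 7 genes (UMI counts-per-million, log axis) in the 8 cell classes, with 1 point per library (orange Lats1/2 CKO, green control, triangles E14.5, circles E13.5) and its 95% counting interval. Cdkn1c in endocardial-like cells lies above every other class in all 4 libraries, and Ccnd1 in epicardial-like and cardiomyocyte-like cells lies below the other 6 classes.

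Ccnd1, the D cyclin induced by growth factor signals in many tissues, was highest in coronary endothelial-like cells, at 627 and 456 CPM in Lats1/2 CKO and 637 and 514 CPM in control (E14.5 and E13.5). In cardiomyocyte-like cells it stood at 65.3 and 82.6 CPM in Lats1/2 CKO and 96.4 and 129 CPM in control, and in epicardial-like cells at 94.3 and 69.9 CPM in Lats1/2 CKO and 99.7 and 145 CPM in control. These low classes lay below the other 6 without overlap, the lowest library of which had 217 CPM. The edgeR log2 difference from the other classes was 1.19 (SE 0.112, adjusted p = 8.11e-12) in coronary endothelial-like cells, −1.63 (SE 0.163, adjusted p = 5.36e-11) in epicardial-like cells and −1.39 (SE 0.123, adjusted p = 3.93e-13) in cardiomyocyte-like cells. Valve mesenchyme-like (399 ± 84.8 CPM, SD over 4 libraries) and macrophage-like cells (333 ± 78.1 CPM) were also called higher, and the macrophage-like call was lost without Lats1/2 CKO E13.5 (adjusted p = 0.142, from 1.83e-04 over the 11 alternatives). Neighbours in the order from coronary endothelial-like to endocardial-like cells (293 ± 45.1 CPM) overlapped in their ranges.

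Ccnd2 had another order. It stood highest in epicardial-like cells, at 1326 and 787 CPM in Lats1/2 CKO and 907 and 922 CPM in control (E14.5 and E13.5), where Ccnd1 was near its lowest. Epicardial-like cells (986 ± 235 CPM), fibroblast-like cells (863 ± 199), endocardial-like cells (846 ± 132) and mural-like cells (709.8 ± 184) overlapped one another and did not overlap the classes below them. All 4 were called higher than the other classes, by edgeR log2 values of 1.05, 0.77, 0.79 and 0.44, the last of which was 0.09 (adjusted p = 0.575) with the Leiden classes and had an adjusted p of 2.56e-06 to 0.575 over all alternatives. Coronary endothelial-like cells (355 ± 46.9 CPM) and valve mesenchyme-like cells (338 ± 52.6), the classes with the highest Ccnd1, were called lower for Ccnd2, at −0.65 and −0.76. Macrophage-like cells had the least, at 205 and 120 CPM in Lats1/2 CKO and 204 and 184 CPM in control, with no overlap with any other class (−1.77).

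Ccnd3 was the D cyclin that set epicardial-like cells apart. They held 456 and 528 CPM in Lats1/2 CKO and 461 and 518 CPM in control (E14.5 and E13.5), above every library of every other class, and the edgeR log2 difference was 1.18 (SE 0.0876, adjusted p = 9.38e-15). Cardiomyocyte-like cells (263 ± 38.4 CPM) were called higher by 0.52, mural-like cells (295 ± 66.1 CPM) by 0.33 and endocardial-like cells (286 ± 39.6 CPM) by 0.28. The mural-like call was lost in 3 of 11 alternatives (adjusted p from 2.53e-09 to 0.286) and the endocardial-like call in 1, without Lats1/2 CKO E13.5. Valve mesenchyme-like cells (149.7 ± 26.8 CPM) and macrophage-like cells (126.5 ± 44.2 CPM) were called lower, by −0.81 and −1.13. In cardiomyocyte-like cells Ccnd1 was therefore called lower, Ccnd3 higher and Ccnd2 neither (0.12, adjusted p = 0.174).

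The kinases differed less between classes. Cdk4 ranged from 619 ± 39.8 CPM in endocardial-like cells to 327 ± 53.6 CPM in macrophage-like cells, and no pair of neighbours in the order was free of overlap. It was called higher in endocardial-like cells (edgeR log2 0.36), fibroblast-like cells (0.20) and coronary endothelial-like cells (0.19), and lower in macrophage-like cells (−0.66). The fibroblast-like call was lost in 5 of 11 alternatives (adjusted p from 1.96e-04 to 0.192) and the coronary endothelial-like call in 7 (0.0206 to 0.172). Cdk6 was sparse, from 73.7 ± 5.13 CPM in macrophage-like and 73.7 ± 17.8 CPM in epicardial-like cells to 32.3 ± 8.53 CPM in endocardial-like cells. It was called higher in macrophage-like (0.67) and epicardial-like cells (0.69) and lower in coronary endothelial-like (−0.75) and endocardial-like cells (−0.83). The coronary endothelial-like call was lost without Lats1/2 CKO E13.5 (edgeR adjusted p = 0.0629, the highest over the 11 alternatives, from 1.37e-04). Endocardial-like cells thus had the highest mean of Cdk4 and the lowest of Cdk6 among the 8 classes.

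Of the inhibitors, Cdkn1b differed little between classes, and Cdkn1c had the widest span of log2 differences of the 7 genes. Cdkn1b ranged from 147 ± 15.1 CPM in valve mesenchyme-like cells to 66.2 ± 22.5 CPM in macrophage-like cells, with overlap between all neighbours in the order. It was called higher in valve mesenchyme-like (edgeR log2 0.55) and cardiomyocyte-like cells (0.48) and lower in endocardial-like (−0.46) and macrophage-like cells (−0.76). Both lower calls were lost without Lats1/2 CKO E13.5 (adjusted p = 0.0736 and 0.0583, the highest over the 11 alternatives). By mean CPM cardiomyocyte-like cells (111 ± 6.98) lay below fibroblast-like cells (128 ± 13.9), which were not called. CPM lacks the rescaling of the edgeR fit, and the part of that rescaling was not tested.

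Cdkn1c reached 4489.8 and 4001 CPM in Lats1/2 CKO and 4641 and 6131 CPM in control endocardial-like cells (E14.5 and E13.5). The highest library of any other class had 3124 CPM. The edgeR log2 difference from the other classes was 2.83 (SE 0.125, adjusted p = 2.39e-22). Epicardial-like cells came next (2466 ± 623 CPM, 1.72) and then mural-like cells (1469.8 ± 520.3 CPM, 0.82), and both were called higher. Fibroblast-like (829 ± 294 CPM) and coronary endothelial-like cells (764 ± 309 CPM) were not called. Cardiomyocyte-like cells (441 ± 75.3 CPM, −0.72), valve mesenchyme-like cells (293 ± 105 CPM, −1.86) and macrophage-like cells (187 ± 45.7 CPM, −2.48) were called lower. Between the endothelial classes, Cdkn1c and Ccnd2 had higher levels in endocardial-like cells and Ccnd1 in coronary endothelial-like cells, with no overlap of libraries for these 3 genes. Cardiomyocyte markers summed to 2620 to 11600 CPM in macrophage-like cells, and the part of other cells' RNA in the low levels there was not tested.

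The genes whose levels ran most like a member's over the 32 class and library sums were found by Pearson's r of log2(CPM + 10) among 4223 genes with a mean of at least 50 CPM. The sums share libraries and class makeup, so r is a description. Cdkn1c ran most like Plagl1 (r = 0.922), an imprinted zinc finger factor, then H19 (0.825), an imprinted non-coding RNA, and Ccnd2 (0.823). Among the genes nearest to Ccnd2 were Clca3a1 (0.827) and Cdkn1c. Ccnd1 ran most like Tcf4 (0.874), Snrpb2 (0.860) and Sfpq (0.832), and Ccnd3 most like Zcchc3 (0.845), Prnp (0.842) and Dctn6 (0.839). For Cdk4 the nearest were Vim (0.902), Ddah2 (0.901) and Maged2 (0.896). Cdk6 and Cdkn1b had looser matches, led by Btg2 (0.748) and Tspan7 (0.799).

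Cells with at least 1 UMI of Mki67 or Top2a, genes expressed in S, G2 and M phase, were then set against cells of the same class and library with neither. There were 5771 such cells and 9573 without, from 21.6% of epicardial-like to 54.2% of macrophage-like cells in the control E13.5 library. A cell's depth helps to set its side. With every cell thinned to 500 UMIs the same shares were 11.2% and 36.1%. In Lats1/2 CKO E13.5 cardiomyocyte-like cells the median was 3937 UMIs with and 2186 UMIs without such a UMI. Counts were summed on each side of each library and compared by edgeR with the library as a block, so that the test rests on 4 pairs of sums per class.

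In cells with a Mki67 or Top2a UMI, Cdkn1b was higher and Ccnd2 and Cdkn1c lower in the 2 largest classes, cardiomyocyte-like and endocardial-like. In valve mesenchyme-like cells, the third in size, none of the 3 genes was called, and Cdkn1c was higher in 2 libraries and lower in 2. Of 54 member and class pairs tested, 15 were called, 4 higher and 11 lower (27.8%), against 8.24% of all gene and class pairs. Their median log2 difference was −0.12, and the median of all genes tested lay between −0.02 and 0.0039 in every class. Cdk6 in mural-like and Cdkn1b in macrophage-like cells had too few UMIs to be tested. The number of calls depended on the method. DESeq2 called 5 pairs, all among the 15, and 7 were called, 6 of them among the 15, when every cell was thinned to 500 UMIs before its side was set. Without the library as a block, 0 of the 15 were called, and the adjusted p of each ran from 0.0724 up. Values of the 15 kept their sign in that fit.

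**Figure D2:**
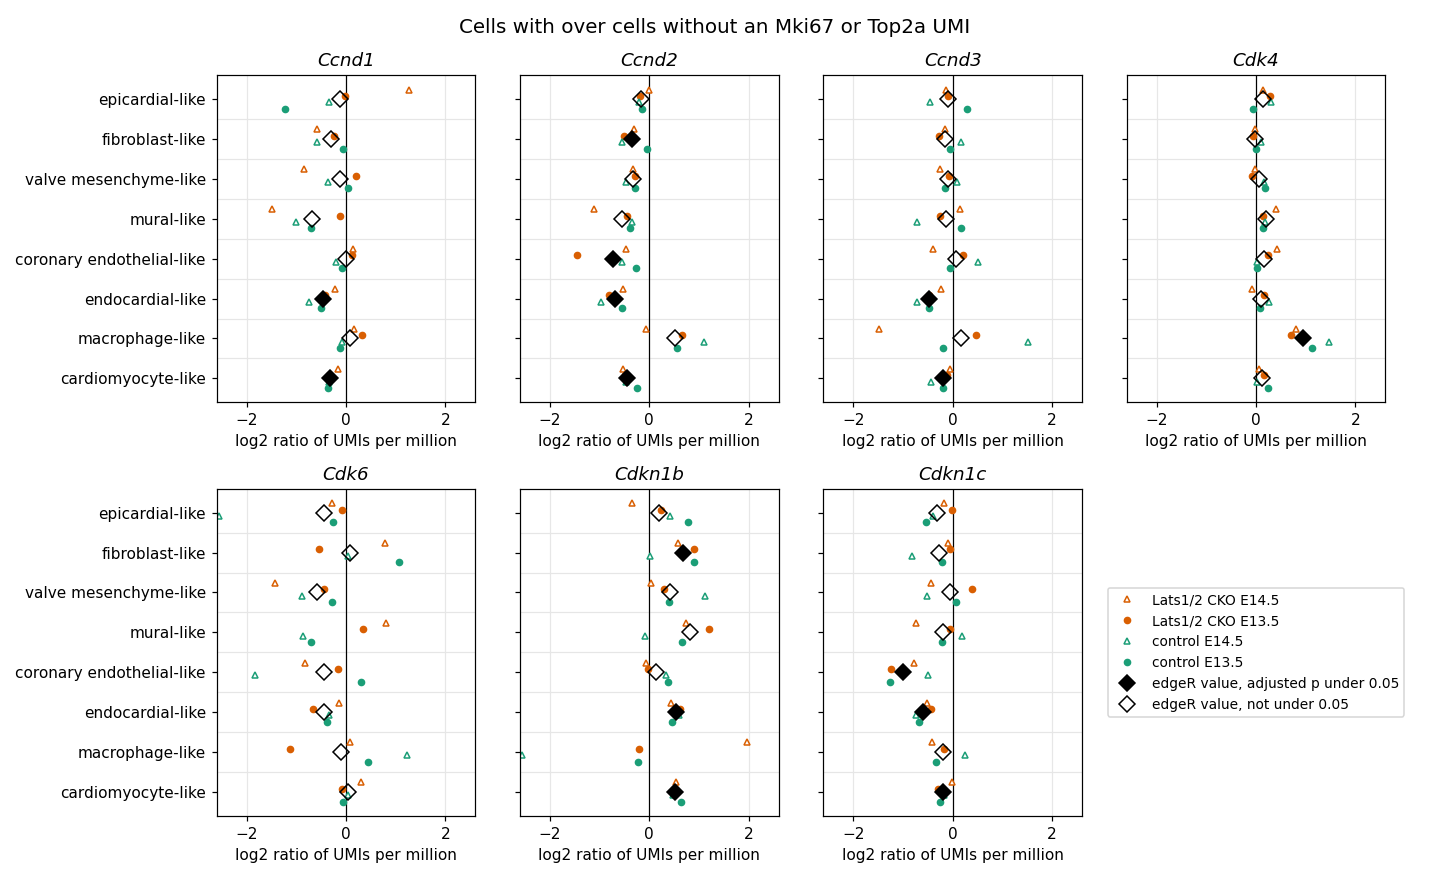
Log2 ratio of the level in cells with over cells without a Mki67 or Top2a UMI, for each gene and class, with 1 small point per library and a diamond for the edgeR value (filled where the adjusted p was under 0.05). Points beyond the axis, 2 in all, are drawn at its edge. All 4 libraries lie left of 0 for Ccnd2 and Cdkn1c and right of 0 for Cdkn1b in endocardial-like and cardiomyocyte-like cells.

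Cdkn1b in cardiomyocyte-like cells stood at 138 and 128 CPM in Lats1/2 CKO and 129 and 118 CPM in control (E14.5 and E13.5) in cells with the UMI. In cells without it stood at 95.4 and 90.3 CPM in Lats1/2 CKO and 92.3 and 76.5 CPM in control. Every library was higher in the cells with the UMI, and the ranges of the 2 sides did not overlap (128 ± 7.91 against 88.6 ± 8.35 CPM, SD, 4 libraries each). The edgeR log2 difference was 0.52 (SE 0.070, adjusted p = 3.22e-09), called in 13 of 15 alternatives and lost with thinned cells (adjusted p = 0.139, the highest over the alternatives, from 9.27e-13) and without the library block (0.0724). Among thinned cells with a Mki67 or Top2a UMI, 7.708% and 5.645% in Lats1/2 CKO and 6.765% and 7.717% in control held a Cdkn1b UMI (E14.5 and E13.5). Without, the shares were 5.399% and 5.83% in Lats1/2 CKO and 4.816% and 3.686% in control. Lats1/2 CKO E13.5 was thus not higher by this measure.

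Cdkn1b was also called higher in fibroblast-like cells, at 134 and 158 CPM in Lats1/2 CKO and 145 and 169 CPM in control with the UMI, against 89.0 and 85.0 CPM in Lats1/2 CKO and 142 and 89.6 CPM in control without. The control E14.5 library was nearly level. The edgeR value of 0.68 (SE 0.191, adjusted p = 0.0167) was called in 5 of 14 alternatives (adjusted p from 0.00453 to 0.838). In endocardial-like cells Cdkn1b stood at 88.0 and 99.3 CPM in Lats1/2 CKO and 84.9 and 117 CPM in control with the UMI, against 65.5 and 65.3 CPM in Lats1/2 CKO and 56.1 and 85.6 CPM in control without. That value was 0.53 (SE 0.171, adjusted p = 0.0428) and was called in 4 of 15 alternatives (0.0263 to 0.595). The log2 value was above 0 in all 7 classes tested, from 0.13 in coronary endothelial-like to 0.82 in mural-like cells, with the other 4 not called. Coronary endothelial-like cells were higher in 2 libraries and lower in 2. Macrophage-like cells, not tested, were lower with the UMI in 3 libraries and higher in 1 (50.1 ± 24.6 against 77.6 ± 60.1 CPM).

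Ccnd2 was called lower in 4 classes. In cardiomyocyte-like cells it stood at 394 and 319 CPM in Lats1/2 CKO and 393 and 431 CPM in control with the UMI, against 566 and 446 CPM in Lats1/2 CKO and 547 and 513 CPM in control without. Each library was lower in the cells with the UMI, and the lowest without, 446 CPM, was above the highest with, 431 CPM. The edgeR log2 difference was −0.44 (SE 0.0421, adjusted p = 1.33e-14), called in 14 of 15 alternatives and lost without the library block (adjusted p = 0.257, from 3.28e-20).

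In endocardial-like cells Ccnd2 stood at 787 and 489 CPM in Lats1/2 CKO and 519 and 617 CPM in control with the UMI, against 1137 and 853 CPM in Lats1/2 CKO and 1017 and 898 CPM in control without. The sides again did not overlap, and the value of −0.70 (SE 0.0878, adjusted p = 7.91e-08) by edgeR was called in 14 of 15 alternatives and lost without the library block (adjusted p = 0.108, from 4.70e-17). Coronary endothelial-like cells gave −0.73 (SE 0.145, adjusted p = 5.60e-04), and without Lats1/2 CKO E13.5 the value was −0.43 (adjusted p = 0.175; 4.82e-05 to 0.395 over the alternatives). Fibroblast-like cells gave −0.36 (SE 0.0942, adjusted p = 0.00948), which was called in 8 of 15 alternatives (6.62e-05 to 0.924) and lost without either Lats1/2 CKO library or without control E14.5. Macrophage-like cells were the only class with a value above 0, at 0.51 (adjusted p = 0.461).

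Cdkn1c was called lower in both endothelial classes and in cardiomyocyte-like cells. Endocardial-like cells with the UMI held 3428 and 3252 CPM in Lats1/2 CKO and 3303 and 4410 CPM in control, against 4921 and 4380 CPM in Lats1/2 CKO and 5526 and 7070 CPM in control without. Every library was lower with the UMI, and the edgeR log2 difference was −0.59 (SE 0.0571, adjusted p = 1.28e-10), called in 14 of 15 alternatives and lost without the library block (adjusted p = 0.0733, from 3.90e-34). The 8 endocardial markers moved the same way in that class, summing to 2690 and 3142 CPM in Lats1/2 CKO and 2354 and 3353 CPM in control with the UMI, against 3682 and 4438 CPM in Lats1/2 CKO and 3839 and 4845 CPM in control without. Their part in this result, or in the lower Ccnd1, Ccnd2 and Ccnd3 values of endocardial-like cells, was not tested.

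Coronary endothelial-like cells with the UMI held 426 and 439.6 CPM of Cdkn1c in Lats1/2 CKO and 608 and 838 CPM in control, against 734 and 1042 CPM in Lats1/2 CKO and 857 and 2000.5 CPM in control without. The edgeR value was −0.99 (SE 0.112, adjusted p = 1.34e-08), called in 14 of 15 alternatives and lost without the library block (adjusted p = 0.190, from 4.46e-17). Endocardial markers, 7 or 8 of 8 with a UMI, were lower there too, summing to 209.5 and 411 CPM in Lats1/2 CKO and 296.8 and 646.5 CPM in control with the UMI, against 224.2 and 692.4 CPM in Lats1/2 CKO and 432.1 and 895.7 CPM in control without. Their part in the coronary value was not tested. In cardiomyocyte-like cells Cdkn1c differed by −0.20 (SE 0.0423, edgeR adjusted p = 1.27e-04), with all 4 libraries lower, and the call was lost under DESeq2, with thinned cells and without the library block (2.96e-06 to 0.887 over the alternatives).

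Ccnd1 and Ccnd3 were called lower in cardiomyocyte-like and endocardial-like cells only. Ccnd1 in cardiomyocyte-like cells stood at 61.8 and 74.1 CPM in Lats1/2 CKO and 86.3 and 115 CPM in control with the UMI, against 68.9 and 94.1 CPM in Lats1/2 CKO and 109 and 148 CPM in control without. The edgeR values were −0.32 (adjusted p = 5.85e-04) and −0.46 (adjusted p = 0.0019) for Ccnd1 and −0.19 (adjusted p = 0.00506) and −0.47 (adjusted p = 0.00113) for Ccnd3, in cardiomyocyte-like and endocardial-like cells. DESeq2 called none of these 4, and the cardiomyocyte-like Ccnd3 call was also lost without either control library (adjusted p from 0.00443 to 0.901). Of 15 alternatives the Ccnd1 calls held in 12 in each class, and the Ccnd3 calls in 10 in cardiomyocyte-like and 13 in endocardial-like cells. Cdk4 was called in macrophage-like cells alone, at 318 and 383 CPM in Lats1/2 CKO and 499.8 and 474 CPM in control with the UMI, against 178 and 232 CPM in Lats1/2 CKO and 179 and 210.1 CPM in control without. Its edgeR value there was 0.95 (SE 0.221, adjusted p = 0.00312), called in 8 of 15 alternatives (0.00146 to 0.416), and lost without either control library. Cardiomyocyte markers in macrophage-like cells summed to 5684 and 4825 CPM in Lats1/2 CKO and 16260 and 2889 CPM in control with the UMI, against 12050 and 3374 CPM in Lats1/2 CKO and 7852 and 2024 CPM in control without. The 10 macrophage markers summed to 11490 and 11930 CPM in Lats1/2 CKO and 6872 and 11180 CPM in control with the UMI, against 10950 and 15150 CPM in Lats1/2 CKO and 14170 and 15310 CPM in control without. In control E14.5, the library with the largest Cdk4 ratio, cells with the UMI thus held more cardiomyocyte and less macrophage marker RNA, and its part in the Cdk4 value was not tested. Cdk6 was called in no class by edgeR or DESeq2, with an unadjusted p under 0.05 in 0 of 7.

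The cells were also split by which of the 2 genes had a UMI, as a description with no test. In cardiomyocyte-like cells Cdkn1b averaged 140 ± 16.9 CPM with both genes, 131 ± 12.7 with Mki67 only, 104 ± 6.44 with Top2a only and 88.6 ± 8.35 with neither (SD over 4 libraries). Ccnd2 averaged 338 ± 45.2, 422 ± 39.2, 472 ± 71.1 and 518 ± 52.8 CPM over the same 4 kinds of cell, of which there were 1394, 576, 1199 and 4662. Cdkn1c in cardiomyocyte-like cells did not follow such an order, at 373 ± 82.2 CPM with both genes, 497 ± 58.0 with Mki67 only, 470 ± 27.7 with Top2a only and 476 ± 95.8 with neither, and the ranges of the 4 kinds of cell overlapped. In endocardial-like cells Cdkn1c averaged 3078 ± 230 CPM with both, 3960.2 ± 883 with Mki67 only, 4424 ± 1084 with Top2a only and 5474 ± 1162 with neither.

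**Figure D3:**
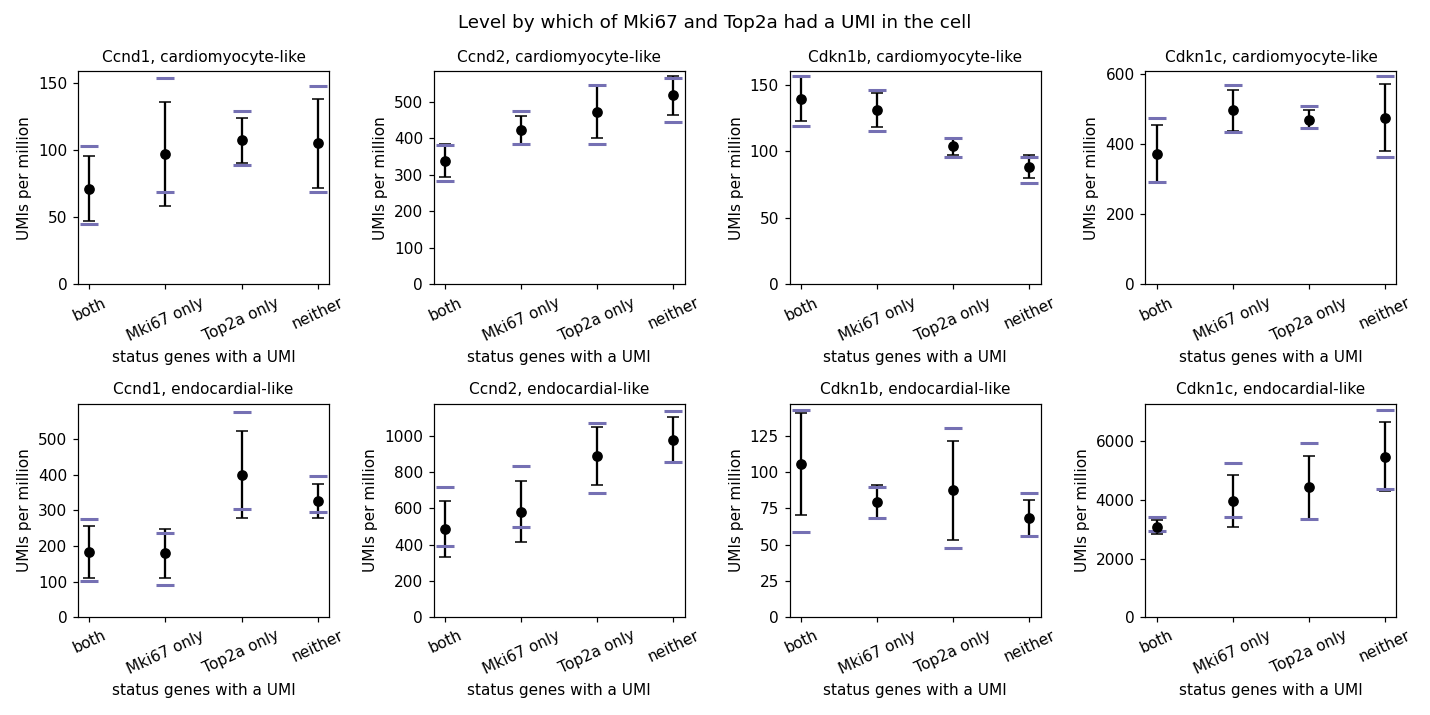
Level (UMI counts-per-million, axes from 0) of Ccnd1, Ccnd2, Cdkn1b and Cdkn1c in cardiomyocyte-like (top) and endocardial-like cells (bottom) by which of Mki67 and Top2a had a UMI. Points are means of 4 libraries, bars the SD and purple dashes the lowest and highest library. Cdkn1b in cardiomyocyte-like cells is highest with both genes (140 CPM) and lowest with neither (88.6 CPM), and Ccnd2 runs the other way (338 and 518 CPM).

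The other genes of the G1 to S pathway were taken from a list of 46. In cardiomyocyte-like cells 43 were tested, of which 22 were higher and 2 lower in cells with the UMI, with a median log2 difference of 0.31 against −0.02 over all genes. Of all genes in that class 8.68% were called higher and 6.82% lower, 15.5% in all. The largest were Ccna2 (2.35), the S and G2 phase cyclin, Cdkn2c (2.21), an INK4 inhibitor of Cdk4 and Cdk6, E2f8 (2.04), a repressing E2F, and Rrm2 (1.99), a subunit of ribonucleotide reductase. The pair called lower was Cdk7 (−0.32), the kinase that activates other CDKs, and Skp1a (−0.12), a part of the ligase that targets p27. In endocardial-like cells 22 of 40 were higher and 0 lower by edgeR, against 6.39% of all genes higher and 2.58% lower, 8.97% in all. Counts in the other 6 classes ran from 3 of 18 in macrophage-like to 16 of 34 in valve mesenchyme-like cells, with 0 lower in each, where 2.56% to 5.61% of all genes were called higher. Between classes, 22 of the 41 tested were called higher and 7 lower in cardiomyocyte-like cells, against 34.6% of all genes higher and 29.2% lower, 63.8% in all. Mycn (2.74), Cdkn2d (1.71), Rrm2 (1.40) and Gmnn (1.11) led those higher, and Myc (−2.73), E2f5 (−1.32), Skp2 (−0.81) and Tyms (−0.73) those lower. Mycn and Myc are related transcription factors of cell growth, and they differed in opposite directions.

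The genotype comparison asks whether loss of Lats1 and Lats2 in the epicardial lineage moved these genes. With 1 library per genotype and stage, the 2 stages served as the only replicates. Each class fit had 1 residual degree of freedom left, and its p-values measure how the genotype difference varied between the stages, not between embryos. No member was called in any class. Of 56 pairs 0 passed the adjusted threshold in edgeR, where the background was 0.128% of all gene and class pairs, 7 had an unadjusted p under 0.05, and DESeq2 called 0. With epicardial-like and fibroblast-like cells pooled, 0 of 7 were called against a background of 0.0932%, with 1 unadjusted p under 0.05.

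**Figure D4:**
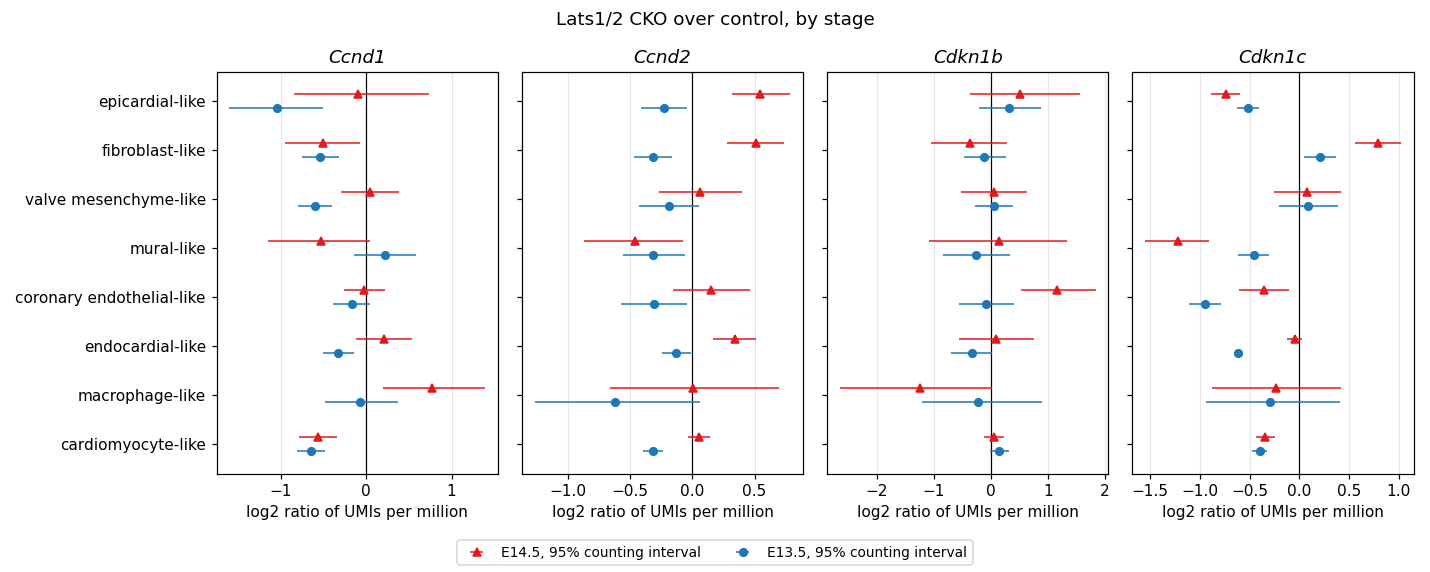
Log2 ratio of Lats1/2 CKO over control for Ccnd1, Ccnd2, Cdkn1b and Cdkn1c in the 8 classes, at E14.5 (red triangles) and E13.5 (blue circles), with 95% counting intervals that do not cover differences between embryos. Cdkn1c lies right of 0 at both stages in fibroblast-like cells (0.79 and 0.21) and left of 0 at both in epicardial-like (−0.74 and −0.52) and mural-like cells (−1.22 and −0.46).

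Cdkn1c gave 4 of the 7 small unadjusted p-values. In epicardial-like cells it stood at 1870.4 and 2003 CPM in Lats1/2 CKO and 3124 and 2866 CPM in control (E14.5 and E13.5), with both Lats1/2 CKO libraries below both control libraries (edgeR log2 −0.61, SE 0.212, adjusted p = 0.433). In mural-like cells it stood at 889.5 and 1226 CPM in Lats1/2 CKO and 2077 and 1686 CPM in control (−0.78, SE 0.282, adjusted p = 0.651). In coronary endothelial-like cells it stood at 529 and 632 CPM in Lats1/2 CKO and 677 and 1219 CPM in control (−0.64, adjusted p = 0.9997). Cardiomyocyte-like cells held 362 and 407 CPM in Lats1/2 CKO and 459 and 537 CPM in control (−0.35, adjusted p = 0.99). In all 4 classes the counting interval of the ratio lay below 0 at both stages. Endocardial-like cells, with the most Cdkn1c, held 4489.8 and 4001 CPM in Lats1/2 CKO and 4641 and 6131 CPM in control. Their log2 ratio was −0.05 at E14.5 (interval −0.12 to 0.03) and −0.62 at E13.5 (−0.66 to −0.57). Valve mesenchyme-like (0.08 and 0.09) and macrophage-like cells (−0.24 and −0.30) had intervals that held 0 at both stages.

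The summed markers of endocardial cells, the class with the most Cdkn1c, moved the same way as Cdkn1c in 3 of the 4 classes with intervals below 0 at both stages. Which of these markers carried the sum was not tested. Their sum was 1220 and 1608 CPM in Lats1/2 CKO and 1458 and 2278 CPM in control epicardial-like cells (E14.5 and E13.5), with 5 to 8 of 8 having a UMI and Cytl1, Vwf or Plvap at 0 in some libraries. In mural-like cells it was 256.4 and 473.5 CPM in Lats1/2 CKO and 414.1 and 801 CPM in control, with 4 to 8 of 8 having a UMI and Nfatc1 at 0 in Lats1/2 CKO E14.5. In coronary endothelial-like cells it was 214.4 and 500.7 CPM in Lats1/2 CKO and 334.4 and 728.2 CPM in control, with 7 or 8 of 8 having a UMI. In cardiomyocyte-like cells it was 78.28 and 87.05 CPM in Lats1/2 CKO and 73.06 and 78 CPM in control, and was not lower in Lats1/2 CKO. Cardiomyocyte markers in mural-like cells summed to 17890 and 3363 CPM in Lats1/2 CKO and 11570 and 2372 CPM in control. Their part in the Cdkn1c values was not tested.

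Fibroblast-like cells ran the other way, at 1263 and 709 CPM in Lats1/2 CKO and 731 and 613 CPM in control. The log2 ratios were 0.79 at E14.5 and 0.21 at E13.5, with both counting intervals above 0, and the edgeR value was 0.51 (SE 0.223, adjusted p = 0.99). The difference between classes was then tested, with the classes chosen after these ratios were seen. The fibroblast-like ratio exceeded the epicardial-like one by 1.10 on the log2 scale (SE 0.226, edgeR adjusted p = 0.0325) and the coronary endothelial-like one by 1.12 (SE 0.182, adjusted p = 7.92e-07). Against mural-like (1.26, SE 0.281, adjusted p = 0.17) and cardiomyocyte-like cells (0.83, SE 0.228, adjusted p = 0.16) it was not called. Over the 4 class pairs 0.128% of all gene tests were called, and of the 7 members Cdkn1c alone was. The class pairs were picked by the ratios of Cdkn1c itself, which favoured it over the other members and genes. The adjusted p-values do not allow for that choice. DESeq2 called neither difference (adjusted p = 0.99988 and 0.99999), and with Leiden classes the coronary difference was 0.84 (adjusted p = 0.0720). Epicardial markers summed to 312.4 and 201.6 CPM in Lats1/2 CKO and 138.3 and 208.7 CPM in control fibroblast-like cells, with 7 of 11 having a UMI and Krt8, Muc16 and Lrrn4 at 0 in each of the 4 libraries. Their part in the fibroblast-like value was not tested.

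Ccnd1 lay lower in Lats1/2 CKO in several classes without a call. In pooled epicardial-like and fibroblast-like cells it stood at 146 and 216 CPM in Lats1/2 CKO and 254 and 335 CPM in control (edgeR log2 −0.68, SE 0.202, adjusted p = 0.491). In epicardial-like cells alone the log2 ratio was −0.10 at E14.5 and −1.05 at E13.5. In fibroblast-like cells alone Ccnd1 stood at 239 and 306 CPM in Lats1/2 CKO and 340.4 and 443 CPM in control (−0.51, adjusted p = 0.99). The pooled cells differed in class mix, with 205 epicardial-like and 172 fibroblast-like cells in Lats1/2 CKO and 93 and 220 in control at E14.5, against 225 and 435 in Lats1/2 CKO and 125 and 330 in control at E13.5. Epicardial-like cells, the lower in Ccnd1, gave 64.3% and 37.8% of the pooled UMIs in Lats1/2 CKO and 35.9% and 36.5% in control (E14.5 and E13.5), and the pooled ratio at E14.5 (−0.80) was below that of either class. Cardiomyocyte-like cells stood at 65.3 and 82.6 CPM in Lats1/2 CKO and 96.4 and 129 CPM in control (edgeR log2 −0.59, SE 0.132, adjusted p = 0.99). Ccnd2 split by stage in pooled cells, at 1260.2 CPM in Lats1/2 CKO and 840.5 CPM in control at E14.5, against 715 CPM in Lats1/2 CKO and 868 CPM in control at E13.5. Its edgeR value there was 0.18 (adjusted p = 0.976). Cdkn1b, the other inhibitor, stood at 97.8 and 123 CPM in Lats1/2 CKO and 114 and 120.3 CPM in control in the pooled cells (−0.06, SE 0.221, adjusted p = 0.996). In mural-like cells the Ccnd2 ratio was −0.46 at E14.5 (interval −0.87 to −0.07) and −0.31 at E13.5 (−0.56 to −0.06), without a call. That was the 1 class in which the Ccnd2 interval lay on 1 side of 0 at both stages. Ccnd3, Cdk4, Cdk6 and Cdkn1b had no class in which the counting interval lay on 1 side of 0 at both stages.

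Of the 46 pathway genes 1 was called between genotypes, in epicardial-like cells, where 35 were tested and 0.202% of all genes were called. Cdkn1a (p21), the Cip/Kip inhibitor best known as a p53 target, stood at 242 and 104 CPM in Lats1/2 CKO and 9.50 and 24.9 CPM in control (E14.5 and E13.5). Control E14.5 rests on 2 UMIs (exact Poisson interval 1.15 to 34.3 CPM) and control E13.5 on 11, against 126 and 80 UMIs in Lats1/2 CKO. The edgeR log2 difference was 2.94 (SE 0.450, adjusted p = 0.00585). It was called in 5 of 7 alternatives and lost under DESeq2 and stricter marker gates (adjusted p from 6.31e-10 to 0.157). In fibroblast-like cells Cdkn1a stood at 90.2 and 67.7 CPM in Lats1/2 CKO and 26.6 and 41.5 CPM in control and was not called. Within the Cip/Kip family, epicardial-like cells thus held more Cdkn1a in Lats1/2 CKO, while Cdkn1b and Cdkn1c were not called.

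Whether the contrast of cells with and without a Mki67 or Top2a UMI itself differed by genotype was tested as an interaction. Of 54 pairs 0 were called by edgeR against a background of 0.0455%, 6 had an unadjusted p under 0.05, and DESeq2 called 0. The values of Cdkn1c ran from −0.33 to 0.44 over the 8 classes. Rrm2 in cardiomyocyte-like cells was the 1 pathway gene called, at 0.80 (adjusted p = 7.03e-07) by edgeR, and it was lost under DESeq2 (adjusted p = 0.58, against 4.53e-07 at the lowest).

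Between stages 1 of 56 member and class pairs was called (1.79%), close to the 1.55% of all gene and class pairs, and 6 had an unadjusted p under 0.05. The call was in valve mesenchyme-like cells, where 3.92% of all genes were called, so the count does not set the members apart. Cdkn1c in valve mesenchyme-like cells stood at 395 CPM in Lats1/2 CKO and 373 CPM in control at E14.5, against 209.7 CPM in Lats1/2 CKO and 197 CPM in control at E13.5. Both E14.5 libraries were above both E13.5 libraries, and the edgeR log2 difference was 1.02 (SE 0.199, adjusted p = 0.00184). The call was lost under DESeq2, with Leiden classes and in cells of at least 1000 UMIs (log2 0.67 to 1.07, adjusted p from 0.00129 to 0.204). Cardiomyocyte markers in that class summed to 8275 CPM in Lats1/2 CKO and 8910 CPM in control at E14.5, against 1730 CPM in Lats1/2 CKO and 1240 CPM in control at E13.5, and endocardial markers to 584 CPM in Lats1/2 CKO and 549 CPM in control at E14.5, against 622 CPM in Lats1/2 CKO and 791 CPM in control at E13.5. Their part in the difference was not tested. The Ccnd2 value was above 0 in all 8 classes, from 0.21 to 0.59, with 0 called and 2 unadjusted p-values under 0.05. Of the pathway list Mcm4 (−1.03, adjusted p = 0.0225) in valve mesenchyme-like and Mcm5 (−3.26, adjusted p = 0.0129) in mural-like cells, both parts of the replicative helicase, were called lower at E14.5 by edgeR. Mcm5 there had 0 UMIs in Lats1/2 CKO (exact Poisson upper limit 29.6 CPM) and 2 in control at E14.5, against 47 in Lats1/2 CKO and 27 in control at E13.5, so its log2 value is no bound. The Mcm4 call was lost in 4 of 7 alternatives (0.00574 to 0.99998) and the Mcm5 call in 2 of 6 (0.00174 to 0.0869). In valve mesenchyme-like cells 1 of 39 listed genes tested was called, against 3.92% of all genes. In mural-like cells it was 1 of 27, against 4.77%.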

How the data were processed

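The authors deposited 1 table of whole-number UMI counts for 30268 genes in 24849 cells from 4 libraries, with the stage and genotype in each cell's name. Per the submitters' processing notes, reads were handled with Picard and STAR on mm10, and their versions and the strand setting are not given in the sources used here. The labels, which give the earlier stage as E13.5, were used for the stages. Here, cells with at least 500 UMIs, 300 genes and at most 20% mitochondrial UMIs were kept. Each was given to a class where its mean z-score of class markers was at least 0.2, led the next class by 0.15 and rested on 2 markers with a UMI, and coronary from endocardial cells were split by a margin of 0.1. The lead was not needed between fibroblast and valve mesenchyme. Fibroblast-like cells had to hold a Tcf21 UMI and valve mesenchyme-like cells none, each with its own score the higher. The part of depth in this was not tested. Median UMIs were 1229.5 and 2374 in Lats1/2 CKO and 1150.5 and 1768 in control for fibroblast-like cells (E14.5 and E13.5). Valve mesenchyme-like cells had 887 and 1658.5 in Lats1/2 CKO and 859 and 1317 in control. No doublet caller was run, and leaving out the 5% deepest cells served as an alternative. These thresholds were set after the data were seen, and the members and gene lists were chosen with earlier results of these data known. Named genes are the members, the targeted and status genes, the 4 largest changes each way of the pathway list in the class with most cells, and up to 3 of the nearest genes of each member. A nearest gene of Ccnd2 is not reported here. Other pathway genes are named where a count of 5 or fewer rests on them, after their values were seen.

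Counts were summed per library and class, and cells of 1 library were not used as replicates. The sums were tested across all genes with edgeR 4.0.16 (quasi-likelihood, TMM, R 4.3.3), adjusted over all genes of a class at 0.05. The status fit had 8 sums and 3 residual degrees of freedom per class, the class fit 32 sums, the interaction fit 2 residual degrees of freedom, and the genotype and stage fit 1 residual degree of freedom. DESeq2 1.42.0 was an alternative, beside other size factors, no filter on low counts, Leiden classes (scanpy 1.11.5, 3025 variable genes, 30 components, 15 neighbours, resolution 1.0), stricter gates (0.4 and 0.3), cells of at least 1000 UMIs, thinned cells and each library left out. The scripts were tested on simulated counts. Intervals of levels are 95% exact Poisson intervals, and those of log2 ratios are 95% exact binomial intervals given the summed count of the 2 sides. Both cover counting error only. Libraries are separate samples by their labels, but nothing says how many hearts each holds, so p-values cannot be said to measure the spread between hearts. With the library as a block, they measure how a difference within a library varied over the 4 libraries. In the genotype and stage fit, they measure how the genotype difference varied between stages, or the stage difference between genotypes.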

Additional observations from a re-analysis of the deposited data

Results flagged for a closer look

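By counting intervals at both stages, the genotype ratio of Cdkn1c lay above 0 in fibroblast-like cells and below 0 in 4 other classes. These classes were chosen after the ratios of Cdkn1c were seen, and 2 of the 4 differences between classes passed the test. Its log2 ratio of Lats1/2 CKO over control, from the edgeR fit of the difference between classes, was 1.104 higher in fibroblast-like than in epicardial-like cells (adjusted p = 0.0325), 1.123 higher than in coronary endothelial-like cells (adjusted p = 7.92e-07), 1.261 higher than in mural-like cells (adjusted p = 0.17) and 0.8324 higher than in cardiomyocyte-like cells (adjusted p = 0.16). The first 2 passed the threshold. DESeq2 called neither of them (adjusted p = 0.99988 and 0.99999), and with Leiden classes the coronary difference was 0.84 (adjusted p = 0.0720). All 4 are listed for their counting intervals at both stages. These lay above 0 in fibroblast-like cells and below 0 in the other class. Endocardial-like (−0.05 and −0.62) and macrophage-like cells (−0.24 and −0.30) also had ratios below 0 at E14.5 and E13.5. Their intervals held 0 at E14.5, and in macrophage-like cells at E13.5 too. Valve mesenchyme-like cells (0.08 and 0.09) had ratios above 0 with intervals that held 0. The 4 comparisons share the fibroblast-like sums, and each class of a library shares its preparation. The adjusted p-values do not allow for the choice of classes by these same ratios.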

How the results depend on the processing

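For cells with against without a Mki67 or Top2a UMI, 15 member calls became 5 under DESeq2, 7 with cells thinned to 500 UMIs and 0 without the library as a block, which puts the differences between libraries into the error. The cause of the DESeq2 difference was not tested, and thinning leaves fewer UMIs and fewer pairs to test. Leaving out 1 library at a time gave 11 to 13 calls, and the other alternatives gave 13 to 19. For each class against the others, 36 calls became 28 to 38 with 1 library left out and 36 to 40 otherwise. Among pairs called in the gated or the Leiden classes, Leiden classes turned 2 directions, neither called in the gated classes. Turned directions of pairs called in neither setting were not counted. Cdkn1c in fibroblast-like cells was −0.10 and became 0.56, and Ccnd1 in mural-like cells was 0.28 and became −1.27, and the cause was not tested. The 1 stage call became 0 under DESeq2, 0 with Leiden classes and 0 in cells of at least 1000 UMIs. The genotype calls were 0 in every alternative that was run, which with 1 residual degree of freedom says nothing about stability. The interaction calls were 0 in the 3 alternatives that were run, with 2 residual degrees of freedom. Leaving out a library leaves the genotype and stage fits without a residual, so those are values with no test. No paired analysis was possible because the genotype and stage groups share only the number 1, given to the lone library of each. The library block pairs the 2 sides of 1 library, and the genotype fit has the stage as a term.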

Other observations

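Myc and Mycn, transcription factors of cell growth, differed between cell classes in opposite directions in several of them. In cardiomyocyte-like cells Mycn stood at 58.9 and 72.8 CPM in Lats1/2 CKO and 53.1 and 91.9 CPM in control (E14.5 and E13.5), and Myc at 3.75 and 6.33 CPM in Lats1/2 CKO and 5.77 and 6.94 CPM in control. In macrophage-like cells Myc stood at 55.6 and 114 CPM in Lats1/2 CKO and 43.3 and 131 CPM in control, and macrophage-like cells were called higher for Myc (1.45, edgeR adjusted p = 1.26e-08) and lower for Mycn (−2.29, adjusted p = 0.00216). Coronary endothelial-like cells were called higher for both by edgeR, at 0.65 for Myc (adjusted p = 6.25e-04) and 1.23 for Mycn (adjusted p = 9.30e-05). Epicardial-like cells were called lower for Myc (−0.85, adjusted p = 0.00133) and higher for Mycn (0.77, adjusted p = 0.0334). Fibroblast-like and mural-like cells were called higher for Myc, at 0.98 and 1.01. These values were looked at after the pathway list had been read.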
